A study of Mus musculus with 24 samples.

Results

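Neural stem cells grown from the mouse subventricular zone were compared between genotypes in 1 step of their differentiation, the day from day 1 to day 2 after growth factors were withdrawn. Of the 24 arrays of the series, 12 belong to this step: 6 from Mll1-deleted cultures and 6 from wild-type cultures. For each mouse, the log2 intensity of a gene on day 1 was subtracted from that on day 2, and the 3 changes of Mll1-deleted mice (489, 814 and 858) were set against the 3 changes of wild-type mice (818, 862 and 870). A positive difference therefore means that a gene rose more, or fell less, in Mll1-deleted cultures. Cultures of both genotypes had been passaged 5 to 7 times in a medium with serum, EGF, FGF and bovine pituitary extract, and were then moved to a differentiation medium with pituitary extract and N2 supplement but without serum, EGF or FGF. The other 12 arrays hold the same 6 cultures on day 0 and day 4. How and in which cells Mll1 was deleted, and the age of the mice, are not given in the sources used here.

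The subventricular zone lines the lateral ventricles and keeps astrocyte-like stem cells after birth. These give rise to dividing progenitors and then to neuroblasts, which migrate to the olfactory bulb and become interneurons, and they also make oligodendrocytes and astrocytes. Mll1 (now named Kmt2a) is a methyltransferase that places methyl groups on lysine 4 of histone H3 at active genes. Notch signalling between neighbouring cells holds progenitors back from differentiation, and neuroblasts that leave the cycle build growth cones from microtubules and actin.

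Kmt2a itself did not pass the test. It was at 610.1, 605 and 682 in Mll1-deleted cultures on day 2, against 637, 578 and 577 on day 1. In wild-type cultures Kmt2a was at 560.3, 648 and 570.3 on day 2, against 547, 504 and 407 on day 1, a difference of -0.21 ± 0.15 (log2 ± SE, adjusted p = 0.679). The deleted exons and the positions of the probes are not given in the sources used here, and the deletion was not checked by this value. Throughout, values per mouse are linear intensities in the order 489, 814 and 858, and 818, 862 and 870, and n is 3 mice per genotype.

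Markers of neural stem cells, 18 of 18 measured, were above the floor (the mean lower quartile of a group's arrays, 24.7 to 26.9 on these days) in both genotypes on both days. So were 29 of 29 neuroblast, 19 of 20 astrocyte, 20 of 22 oligodendrocyte lineage and 12 of 14 microglia genes. Passing this floor therefore does not tell cell types apart. Astrocyte markers summed to 93913 to 107606 in Mll1-deleted cultures on day 2 and 71126 to 101796 on day 1. In wild-type cultures they summed to 116793 to 123308 on day 2 and 123420 to 125094 on day 1. Microglia markers summed to 604 to 639 in Mll1-deleted cultures on day 2 and 555 to 597 on day 1, and to 604 to 626 in wild-type cultures on day 2 and 565 to 605 on day 1, and none of the 14 passed in the difference. The 18 markers of endothelium, pericytes and fibroblasts summed to 4564 to 8914 in Mll1-deleted cultures on day 2 and 3856 to 7767 on day 1, against 2910 to 4177 in wild-type cultures on day 2 and 2034 to 2950 on day 1. Their median member was at 71.6 on day 2 and 62.5 on day 1 in Mll1-deleted cultures. In wild-type cultures it was at 68.6 and 70.8, so the sums rest on the brighter members. None of these 18 passed in the difference either, and the part of such cells in the results below was not tested. Oligodendrocyte lineage genes, 22 measured, summed to 7792 to 10925 in Mll1-deleted cultures on day 2 and 9117 to 10935 on day 1, against 4649 to 5916 in wild-type cultures on day 2 and 5551 to 6424 on day 1. The median member of this list was at 98.9 and 78.9 in Mll1-deleted cultures on days 2 and 1, against 87.9 and 89.0 in wild-type ones. Pdgfra and Cspg4 belong to both this list and the preceding one. In whole cultures, fewer cells of a type and less RNA per cell cannot be told apart.

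Mouse 858 stood apart from the other Mll1-deleted mice on day 1. The first principal component of all arrays (41.8% of the variance) orders the arrays within each mouse by day. It also separates the genotypes on days 1, 2 and 4. On it the day 1 array of mouse 858 lay at 4.62, against -19.5 for mouse 489 and -33.5 for mouse 814. The wild-type arrays of that day lay between 6.10 and 11.5. On day 2 the Mll1-deleted arrays lay between -5.42 and 13.7, and the wild-type ones between 23.9 and 30.4. Across genes, the change of mouse 858 correlated with those of mice 489 and 814 at r = 0.222 and r = 0.240, where 489 and 814 correlated at 0.600 and the wild-type mice with each other at 0.527 to 0.590. These are correlations over 21072 genes, which are not independent replicates. Results that rest on this mouse are given with and without it.

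Of 21072 genes, 211 (1.00%) passed the test of the genotype difference at an adjusted p under 0.05 (limma, Benjamini-Hochberg), and 2343 (11.1%) had an unadjusted p under 0.05. Of the 211, 66 (0.313% of all genes) were higher and 145 (0.688%) lower in the change of Mll1-deleted cultures. Within Mll1-deleted cultures 586 genes (2.78%) passed, of which 193 (0.916%) rose and 393 (1.87%) fell from day 1 to day 2. Within wild-type cultures 1867 (8.86%) passed, of which 899 (4.27%) rose and 968 (4.59%) fell. All 211 had per-mouse changes that did not overlap between genotypes, as did 18.2% of all genes. The wild-type change was the larger of the 2 in size in 166 of the 211, against 11721 of all 21072 genes, and 174 passed in wild-type cultures, against 45 in Mll1-deleted ones. Of the 145 lower genes, 101 had a mean change below 0 in Mll1-deleted cultures and above 0 in wild-type ones, against 3621 of all 21072 genes. In 42 of them the mean was above 0 in both, against 7461 of all genes. Of the 66 higher genes, 51 had a mean change above 0 in Mll1-deleted cultures and below 0 in wild-type ones, against 3922 of all genes. The other 15 had a mean below 0 in both, against 6068 of all genes. Choosing genes by the difference itself favours opposite signs. In 9 genes both changes passed and had opposite signs.

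The number of genes called depended on each mouse. It was 43 without mouse 489, 56 without 814, 36 without 818, 81 without 862 and 64 without 870, but 584 without 858, which included 196 of the 211. Without the mouse as a term in the fit, 29 genes were called, and 22 of the 35 called genes named here were lost; Dpp6, Chrna3, Chrnb4, Grik2, Gamt, Sv2c, Drd3, Stmn2, Dusp4, Trpc4, Cemip2, Plxna4 and Ifit2 were kept. Within the genotypes, the Mll1-deleted count was 105 without 489, 121 without 814 and 386 without 818, and the wild-type count was 526 without 818, 1139 without 862 and 730 without 870. With arrays shifted to equal medians, 95 genes were higher and 128 lower, so that 42.6% of the calls were higher, against 31.3% as first scaled, and among the wild-type calls the share that rose was 31.6%, against 48.2%. The last genes inside the threshold were Angptl7 (adjusted p = 0.0485) and Slc35g2 (adjusted p = 0.0493), and the first outside were Pdgfrl (adjusted p = 0.0507) and Tmem169 (adjusted p = 0.0518).

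**Figure D1:**
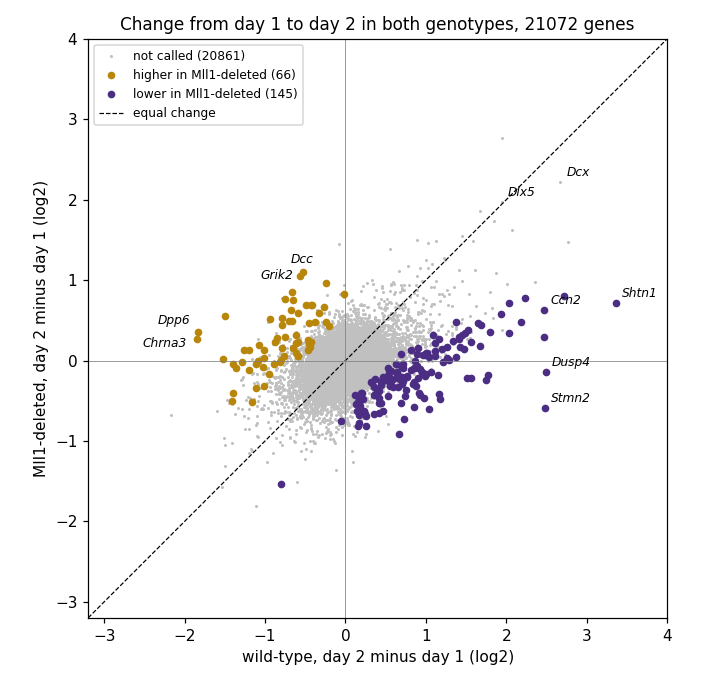
Each point is 1 of 21072 genes, with its mean change from day 1 to day 2 (log2, 3 mice) in Mll1-deleted cultures on the vertical axis and in wild-type cultures on the horizontal axis. The 66 higher genes (gold) and 145 lower genes (purple) lie away from the dashed line of equal change, mostly spread along the wild-type axis, and Dcx and Dlx5 lie near that line.

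Among the 12 largest negative differences were Stmn2, Shtn1, Map1b, Plxna4 and Sema3c, which rose in wild-type cultures and did not pass in Mll1-deleted ones. Stmn2, a stathmin-family regulator of microtubules in neurites, was at 206, 267 and 135 in Mll1-deleted cultures on day 2, against 359, 429 and 163 on day 1. In wild-type cultures Stmn2 was at 866, 240.3 and 406 on day 2, against 89.9, 73.0 and 73.8 on day 1. All 3 wild-type cultures rose and all 3 Mll1-deleted cultures had lower values on day 2 than on day 1, although the Mll1-deleted ones started from higher levels on day 1. The difference of -3.07 ± 0.41 (adjusted p = 0.000962) was the largest in size of the 211 called. Shtn1, which couples actin flow to adhesion in the growth cone, was at 73.4, 116 and 252 in Mll1-deleted cultures on day 2, against 75.1, 87.1 and 74.3 on day 1. In wild-type cultures Shtn1 was at 1366, 655 and 573 on day 2, against 117, 50.2 and 80.1 on day 1. On day 1 the genotypes overlapped, on day 2 every wild-type culture was above every Mll1-deleted one, and mouse 858 was the highest of the Mll1-deleted cultures. Its difference was -2.65 ± 0.41 (adjusted p = 0.00328).

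Map1b, a microtubule-associated protein of developing axons, was at 749, 1073 and 1320.2 in Mll1-deleted cultures on day 2, against 951, 1296 and 1234 on day 1. In wild-type cultures Map1b was at 2520.5, 1318 and 1702 on day 2, against 735, 366 and 529 on day 1 (difference -1.94 ± 0.30, adjusted p = 0.00302). It followed Stmn2 in that the Mll1-deleted cultures were the higher ones on day 1. The semaphorin receptor Plxna4 was at 98.5, 153 and 185 in Mll1-deleted cultures on day 2, against 104, 112 and 116 on day 1. In wild-type cultures Plxna4 was at 762, 405 and 456 on day 2, against 129, 121 and 129.6 on day 1 (difference -1.69 ± 0.26, adjusted p = 0.00302). Here the genotypes were close on day 1 and did not overlap on day 2. Sema3c, a secreted guidance cue, was at 269, 344 and 121 in Mll1-deleted cultures on day 2, against 376, 368 and 133 on day 1. In wild-type cultures Sema3c was at 273, 214 and 252 on day 2, against 79.5, 68.5 and 71.7 on day 1 (difference -1.98 ± 0.21, adjusted p = 0.000326). Its wild-type levels were far below the Mll1-deleted ones on day 1 and lay within their range on day 2. The calls of Stmn2, Shtn1, Map1b, Plxna4 and Sema3c held without any single mouse.

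Of 29 measured neuroblast and young neuron genes, 4 were lower in the difference (Stmn2, Plxna4, Gad1 and Celf4) and 0 higher, against 0.688% and 0.313% of all genes. The median difference of the 29 was -0.49, against -0.003 over all genes. In wild-type cultures 20 of the 29 rose and 0 fell, against 4.27% and 4.59% of all genes. In Mll1-deleted cultures 6 rose and 1 fell, against 0.916% and 1.87%. Without mouse 858 the lower members numbered 9 and 1 was higher, without 489, 818 or 862 there were 2 lower, and without 814 and without 858 the members that rose in Mll1-deleted cultures numbered 1 and 3. Gad1, which makes the transmitter GABA, was at 189, 174 and 247 in Mll1-deleted cultures on day 2, against 183, 107 and 189 on day 1. In wild-type cultures Gad1 was at 635, 635 and 519 on day 2, against 209, 201 and 212 on day 1, a difference of -1.14 ± 0.23 (adjusted p = 0.0182) that was lost without mouse 489, 818 or 862. Celf4, a neuronal RNA-binding protein, differed by -1.33 ± 0.29 (adjusted p = 0.0295) and kept its call only without mouse 858 among the left-out mice.

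Of genes outside that list, Myt1l, Calb2 and Dlx1as were lower in the difference. The transcription factor Myt1l rose in wild-type cultures (log2 1.00, adjusted p = 0.000173) but stood at 0.10 in Mll1-deleted ones (adjusted p = 0.794), a difference of -0.90 ± 0.20 (adjusted p = 0.0335) whose call was kept among the left-out mice only without 862. Calb2, the calcium-binding protein calretinin of olfactory bulb interneurons, was at 18.1, 16.6 and 20.2 in Mll1-deleted cultures on day 2, against 17.9, 16.2 and 32.6 on day 1. In wild-type cultures Calb2 was at 87.8, 73.6 and 52.9 on day 2, against 24.5, 20.9 and 29.2 on day 1. Only the wild-type cultures of day 2 averaged above the floor, so the difference of -1.72 ± 0.32 (adjusted p = 0.0117, lost without 818 or 862) rests on values near background in the other 3 groups. Dlx1as, an RNA antisense to the homeobox gene Dlx1, was at 45.7, 62.5 and 105 in Mll1-deleted cultures on day 2, against 37.1, 35.2 and 43.8 on day 1. In wild-type cultures Dlx1as was at 1188, 435 and 273 on day 2, against 159.8, 50.6 and 61.8 on day 1. The wild-type peak of day 2 was present in all 3 mice and was gone on day 4, when the levels were 59.8, 83.7 and 63.6 in Mll1-deleted cultures and 74.6, 43.6 and 68.4 in wild-type ones. The difference of -1.91 ± 0.41 (adjusted p = 0.0277) was lost without 489, 814, 818 or 862 and with a trended, robust prior, and whether the array separates it from Dlx1 on the opposite strand is not given in the sources used here.

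Dcx and Dlx5 rose in both genotypes, with no difference that passed. Dcx, the microtubule protein of migrating neuroblasts, was at 90.8, 271 and 879 in Mll1-deleted cultures on day 2, against 60.4, 41.5 and 86.4 on day 1. In wild-type cultures Dcx was at 2563, 2040.4 and 2084 on day 2, against 513, 262 and 314 on day 1. The change was 2.21 in Mll1-deleted cultures (adjusted p = 0.0106, lost without 814) and 2.67 in wild-type ones (adjusted p = 0.000589), and the difference was -0.46 ± 0.62 (adjusted p = 0.865). Mouse 489 rose much less than the other 5, and the wild-type level was the higher one on both days. Dlx5, a homeobox factor of interneuron progenitors, rose by 1.97 in Mll1-deleted cultures (adjusted p = 0.00117) and by 1.94 in wild-type ones (adjusted p = 0.000159), a difference of 0.03 ± 0.39 (adjusted p = 0.989), while the difference in level, Mll1-deleted minus wild-type, was -2.24 on day 2 (adjusted p = 0.000573) and -2.27 on day 1 (adjusted p = 0.000535). The differences of Dlx1 (0.17 ± 0.41, adjusted p = 0.936), Dlx2 (0.53 ± 0.34, adjusted p = 0.638), Insm1 (0.72 ± 0.22, adjusted p = 0.153) and Pou3f4 (-0.44 ± 0.24, adjusted p = 0.521) did not pass, and neither did their changes within either genotype. In level, 8.74% of all genes differed between genotypes on day 2 and 7.45% on day 1. Pou3f4, a POU-domain factor, was lower in Mll1-deleted cultures by the same test on both days, with -2.09 on day 2 (adjusted p = 3.8e-07) and -1.65 on day 1 (adjusted p = 7.1e-06).

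**Figure D2:**
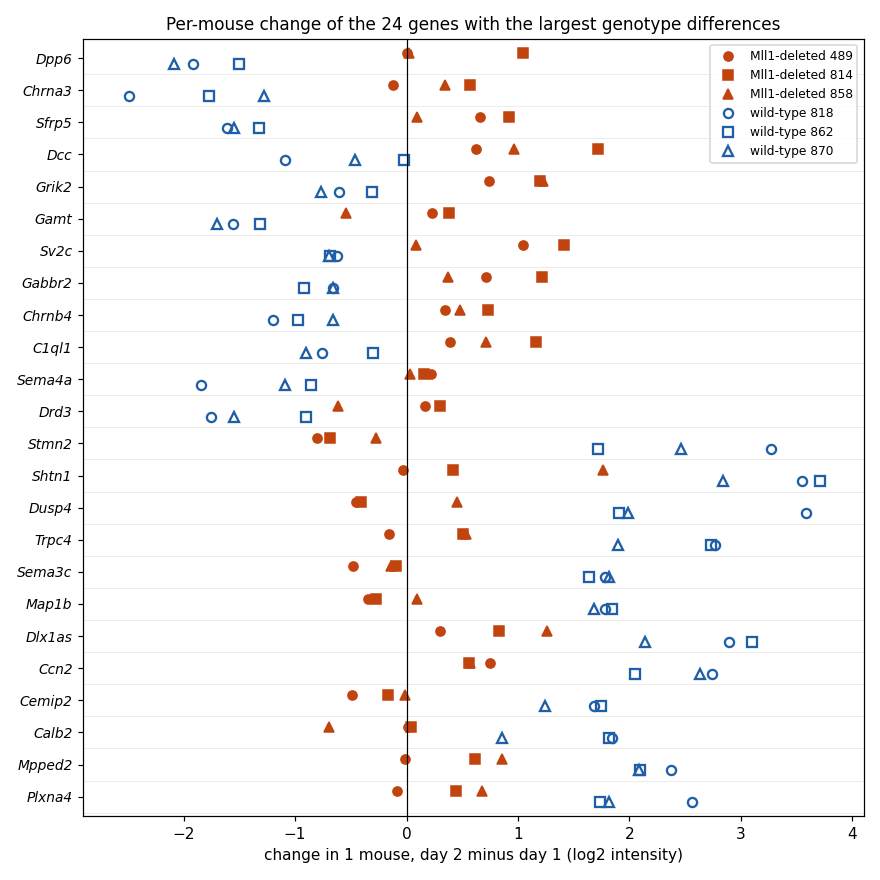
Change from day 1 to day 2 in each mouse (log2 intensity) for the 12 largest positive and 12 largest negative differences, with filled orange symbols for Mll1-deleted mice and open blue ones for wild-type mice. The genotypes do not overlap in any of these genes, as the naming rule required, and the wild-type changes lie farther from 0 than the Mll1-deleted ones in most of them.

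Ccn2, Dusp4 and Dusp1 were lower in the difference as well, as the 1 called of 25 extracellular matrix genes (Ccn2), the 1 called of 20 EGF and FGF feedback targets (Dusp4) and the 1 lower of 18 immediate early genes (Dusp1). Ccn2, the secreted connective tissue growth factor, was at 1398, 1578 and 739.6 in Mll1-deleted cultures on day 2, against 834, 1068 and 499 on day 1. In wild-type cultures Ccn2 was at 2349, 1728 and 2989 on day 2, against 352, 417 and 483 on day 1. It rose in all 6 cultures, by 0.62 in Mll1-deleted ones (adjusted p = 0.0475, lost without any 1 of the 6 mice) and by 2.47 in wild-type ones (adjusted p = 5.7e-08), and the difference of -1.85 ± 0.23 (adjusted p = 0.000802) held without any single mouse. Dusp4, a phosphatase that switches off MAP kinases, was at 87.9, 108 and 121 in Mll1-deleted cultures on day 2, against 120.3, 144 and 88.7 on day 1. In wild-type cultures Dusp4 was at 912, 218 and 342 on day 2, against 76.2, 58.1 and 86.5 on day 1. All 3 wild-type cultures rose, 489 and 814 were lower on day 2 than on day 1, and 858 was higher. The difference was -2.63 ± 0.47 (adjusted p = 0.00991, lost without 489, 814 or 818). Dusp1, a phosphatase of the same kind and an immediate early gene, differed by -1.34 ± 0.31 (adjusted p = 0.0438), a call lost without 489, 818, 862 or 870, with a constant of 16 added, with equal medians and with a trended, robust prior.

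Trpc4, a calcium-permeable channel, was at 46.1, 69.1 and 80.1 in Mll1-deleted cultures on day 2, against 51.4, 48.6 and 55.4 on day 1. In wild-type cultures Trpc4 was at 387, 295 and 182 on day 2, against 56.8, 44.3 and 48.8 on day 1 (difference -2.17 ± 0.29, adjusted p = 0.000962). Like Dlx1as it was high in wild-type cultures on day 2 and back near its earlier level on day 4, at 74.1, 72.9 and 66.9. The cell-surface hyaluronidase Cemip2 was at 216, 334 and 291 in Mll1-deleted cultures on day 2, against 302, 374 and 294 on day 1. In wild-type cultures Cemip2 was at 1193, 723 and 537 on day 2, against 372, 216 and 227 on day 1 (difference -1.78 ± 0.20, adjusted p = 0.000330). The day 1 levels of the genotypes overlapped and those of day 2 did not. Mpped2, a metallophosphoesterase, rose in wild-type cultures by 2.18 and stood at 0.48 in Mll1-deleted ones (difference -1.70 ± 0.33, adjusted p = 0.0150, lost without 818, 862 or 870). The calls of Trpc4 and Cemip2 held without any single mouse.

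Of the genes named for other lists, 3 were lower. Slc2a1, the glucose transporter GLUT1, was at 689.9, 699 and 1033 in Mll1-deleted cultures on day 2, against 654, 731 and 592 on day 1. In wild-type cultures Slc2a1 was at 2126, 2257 and 2010.0 on day 2, against 779.6, 808 and 816 on day 1. It rose about alike in the 3 wild-type cultures, and among the Mll1-deleted ones only 858 was clearly higher on day 2. Its difference was -1.14 ± 0.24 (adjusted p = 0.0253), lost without 489, 814 or any 1 wild-type mouse, and it was 1 of 15 measured genes of glycolysis and glucose transport. Ifit2, an interferon-induced RNA-binding protein, was at 294, 281 and 317 in Mll1-deleted cultures on day 2, against 321, 304 and 332 on day 1. In wild-type cultures Ifit2 was at 679, 601 and 687 on day 2, against 388, 347 and 304 on day 1 (difference -1.03 ± 0.17, adjusted p = 0.00598, lost without 489 or 870), the only 1 of 24 interferon response genes called. Tnfrsf10b, a p53-regulated death receptor, fell in Mll1-deleted cultures (-0.51, adjusted p = 0.0153, lost without 489 or 814) and stood at 0.15 in wild-type ones. Its difference of -0.67 ± 0.15 (adjusted p = 0.0365) was lost without any 1 mouse except 858, on the 6 per-mouse changes alone and with equal medians.

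Of 25 measured synapse and excitability genes, 0 were called, against 1.00% of all genes, and the receptor and channel genes that follow are named for the size of their own differences. Chrna3 and Chrnb4, nicotinic acetylcholine receptor subunits that neighbour each other on chromosome 9 in the RefSeq table, were both high in wild-type cultures on day 1. They were the 2 called of 16 measured nicotinic subunits, whose median difference was -0.04, and Chrna5 did not pass (0.40 ± 0.22, adjusted p = 0.544). Chrna3 was at 29.8, 44.1 and 61.1 in Mll1-deleted cultures on day 2, against 32.3, 29.8 and 48.1 on day 1. In wild-type cultures Chrna3 was at 53.5, 49.4 and 82.4 on day 2, against 299.9, 169 and 200.1 on day 1, with a difference of 2.11 ± 0.29 (adjusted p = 0.000962). Chrnb4 was at 91.0, 86.2 and 122 in Mll1-deleted cultures on day 2, against 71.4, 52.1 and 87.4 on day 1. In wild-type cultures Chrnb4 was at 85.7, 95.0 and 113 on day 2, against 196, 187 and 178 on day 1, with a difference of 1.46 ± 0.19 (adjusted p = 0.000802). Every wild-type culture was lower on day 2 than on day 1, and the Mll1-deleted cultures never reached the wild-type level of day 1.

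Dpp6, an auxiliary subunit of potassium channels, was at 81.0, 109.7 and 112 in Mll1-deleted cultures on day 2, against 80.6, 53.1 and 111 on day 1. In wild-type cultures Dpp6 was at 78.5, 81.9 and 73.7 on day 2, against 297, 233 and 312 on day 1 (difference 2.19 ± 0.27, adjusted p = 0.000802). Mouse 814 was the only Mll1-deleted culture with a clearly higher level on day 2. The kainate receptor subunit Grik2 was at 136, 150.4 and 283 in Mll1-deleted cultures on day 2, against 81.1, 65.8 and 121 on day 1. In wild-type cultures Grik2 was at 142, 175 and 117 on day 2, against 215, 217 and 199 on day 1 (difference 1.61 ± 0.19, adjusted p = 0.000488). Its 2 changes passed in opposite directions, 1.05 in Mll1-deleted cultures (adjusted p = 0.000716) and -0.56 in wild-type ones (adjusted p = 0.0122, lost without 818 or 870), and the genotypes overlapped on day 2. The differences of Chrna3, Chrnb4, Dpp6 and Grik2 held without any single mouse.

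Gabbr2, a subunit of the metabotropic GABA receptor, was at 180.3, 264 and 253 in Mll1-deleted cultures on day 2, against 110.2, 114 and 195 on day 1. In wild-type cultures Gabbr2 was at 66.6, 71.3 and 74.4 on day 2, against 105, 135 and 118 on day 1 (difference 1.51 ± 0.24, adjusted p = 0.00463). It differed from the nicotinic subunits in that the Mll1-deleted cultures were the higher ones on day 2, while the levels of day 1 overlapped. Sv2c, a synaptic vesicle protein, was at 111, 142 and 79.6 in Mll1-deleted cultures on day 2, against 53.8, 53.2 and 75.0 on day 1. In wild-type cultures Sv2c was at 40.8, 53.3 and 44.0 on day 2, against 62.9, 86.0 and 71.2 on day 1 (difference 1.52 ± 0.24, adjusted p = 0.00418, lost without 489). It showed the same order of levels on day 2 as Gabbr2. The dopamine receptor gene Drd3 changed by -1.40 (log2) in wild-type cultures and stood at -0.05 in Mll1-deleted ones (difference 1.36 ± 0.28, adjusted p = 0.0243, lost without 489, 814, 818 or 870).

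Sfrp5, Dcc and Sema4a were also among the 12 largest positive differences. Sfrp5, a secreted Wnt antagonist, was at 88.1, 111 and 199.9 in Mll1-deleted cultures on day 2, against 55.6, 58.8 and 188 on day 1. In wild-type cultures Sfrp5 was at 115, 154 and 134 on day 2, against 351, 386 and 391 on day 1 (difference 2.05 ± 0.28, adjusted p = 0.000962). All wild-type cultures fell from a high day 1 level, and mouse 858 had a day 1 level between those of the other Mll1-deleted mice and the wild-type ones. Dcc, the netrin receptor, was at 67.2, 141 and 169 in Mll1-deleted cultures on day 2, against 43.5, 42.8 and 86.5 on day 1. In wild-type cultures Dcc was at 194, 152 and 210.2 on day 2, against 413, 155 and 289 on day 1 (difference 1.63 ± 0.33, adjusted p = 0.0204, lost without 814, 818 or 870). The 3 Mll1-deleted cultures rose, wild-type mouse 862 was almost level and the other 2 wild-type cultures were lower on day 2. The semaphorin Sema4a differed by 1.40 ± 0.23 (adjusted p = 0.00553, lost without 489), and the secreted synaptic organiser C1ql1 by 1.41 ± 0.32 (adjusted p = 0.0351, lost without any 1 mouse except 858 and with a trended, robust prior).

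Gamt, which completes creatine synthesis, was at 500.1, 565 and 369.6 in Mll1-deleted cultures on day 2, against 426, 434 and 539.8 on day 1. In wild-type cultures Gamt was at 203, 239 and 211 on day 2, against 599.8, 595 and 683 on day 1 (difference 1.55 ± 0.20, adjusted p = 0.000847), a call that held without any single mouse. It fell in wild-type cultures to below every Mll1-deleted level of day 2. The antiproliferative gene Btg2 differed by 0.99 ± 0.22 (adjusted p = 0.0298, lost without any 1 mouse except 858), and the growth factor receptor Fgfr3 of astrocytes by 0.61 ± 0.13 (adjusted p = 0.0303, lost without any 1 mouse except 858 and on the 6 per-mouse changes alone).

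The Notch pathway was described through 17 measured genes, of which 2 were higher in the difference, Nrarp and Dll1, and 0 lower. Over all genes these shares were 0.313% and 0.688%. The median difference of the 17 was 0.52, against -0.003 over all genes. The upstream sequences of Nrarp, Dll1 and Hes5 are shown side by side. Hes5, like Nrarp, is induced by the pathway, and it fell just outside the threshold. Each run is the 250 bases before a RefSeq start site in build GRCm38.p6, 5′ to 3′ on the strand of the gene. Capitals mark TGGGAA, the core of the motif bound by RBPJ, the DNA-binding partner of Notch, searched on both strands (TTCCCA is its reverse complement).
Nrarp (chr2:25180508-25180757, plus strand): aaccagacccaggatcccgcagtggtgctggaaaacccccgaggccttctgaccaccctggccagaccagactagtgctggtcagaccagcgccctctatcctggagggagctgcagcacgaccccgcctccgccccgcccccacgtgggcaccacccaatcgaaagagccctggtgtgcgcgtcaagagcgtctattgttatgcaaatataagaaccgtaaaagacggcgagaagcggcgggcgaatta
Dll1 (chr17:15376933-15377182, minus strand, 1 of 2 starts): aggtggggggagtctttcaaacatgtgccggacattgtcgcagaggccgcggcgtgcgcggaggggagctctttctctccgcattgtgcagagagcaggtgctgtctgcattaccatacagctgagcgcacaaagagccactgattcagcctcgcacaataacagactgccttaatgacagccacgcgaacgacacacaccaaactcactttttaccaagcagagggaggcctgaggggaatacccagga
Hes5 (chr4:154960673-154960922, plus strand): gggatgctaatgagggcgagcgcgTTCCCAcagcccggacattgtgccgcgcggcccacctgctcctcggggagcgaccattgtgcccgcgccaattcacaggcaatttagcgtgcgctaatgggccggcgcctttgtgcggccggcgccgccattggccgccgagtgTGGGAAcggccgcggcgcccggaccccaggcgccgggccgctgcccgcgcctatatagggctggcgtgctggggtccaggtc
Only the Hes5 run holds the motif, once on each strand, and 21.6% of the 32851 upstream windows in the table hold it at least once. A match is a run of letters, not a site shown to be bound, and no match says only that these letters are not in the window.

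Nrarp, a feedback inhibitor of Notch that the pathway itself induces, was at 198, 289 and 301 in Mll1-deleted cultures on day 2, against 213, 311 and 332 on day 1. In wild-type cultures Nrarp was at 185, 182 and 163 on day 2, against 448, 355 and 424 on day 1 (difference 1.09 ± 0.16, adjusted p = 0.00222), and its call held without any single mouse. The ligand Dll1 was at 282, 342 and 348 in Mll1-deleted cultures on day 2, against 283, 308 and 462 on day 1. In wild-type cultures Dll1 was at 134, 169 and 120.0 on day 2, against 358, 355 and 360.0 on day 1 (difference 1.27 ± 0.23, adjusted p = 0.0110, lost without 489, 814, 818 or 870). For Dll1 the day 1 levels overlapped, and every wild-type culture fell below every Mll1-deleted one on day 2. Hes5, a repressor of neuronal differentiation, was at 321, 403 and 468 in Mll1-deleted cultures on day 2, against 239, 345 and 655 on day 1. In wild-type cultures Hes5 was at 186, 198 and 227 on day 2, against 343, 320.4 and 434 on day 1 (difference 0.89 ± 0.22, adjusted p = 0.0541). The wild-type changes of these 3 genes were -1.21, -1.36 and -0.84. Of the 17 pathway genes, 9 fell in wild-type cultures, against 4.59% of all genes, and 0 in Mll1-deleted ones, against 1.87%.

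The ligand Dll3, with a difference of 1.20 ± 0.30 (adjusted p = 0.0637), and the receptor Notch3, with 0.71 ± 0.21 (adjusted p = 0.120), did not pass, nor did the target Hes1 (0.55 ± 0.17, adjusted p = 0.155). Without mouse 858, 5 of the 17 were higher, and without 489, 814, 818 or 870, 1 was. The 9 that fell in wild-type cultures became 5 without 818 or without 870.

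Of 18 neural stem cell markers, 0 passed in the difference, against 1.00% of all genes. The median difference was 0.28, against -0.003 over all genes, and 13 of the 18 differences were above 0, against 10427 of 21072. In wild-type cultures 8 of the 18 fell and 1 rose, against 4.59% and 4.27% of all genes. In Mll1-deleted cultures 0 passed, against 2.78%. Hes5 and Lfng belong to this list and to the Notch list and are among the wild-type falls of both, so the lists are not independent. Without mouse 858, 4 of the 18 were higher in the difference, and without 818 and without 870 the wild-type falls numbered 3 and 2. Egfr, the receptor for the withdrawn growth factor EGF, was at 1537, 1823 and 1116 in Mll1-deleted cultures on day 2, against 2029.7, 2024 and 2274 on day 1. In wild-type cultures Egfr was at 636, 957 and 926 on day 2, against 2016, 2360.4 and 2422 on day 1 (difference 0.92 ± 0.32, adjusted p = 0.229). Sox2 (0.14 ± 0.12, adjusted p = 0.751) and Vim (-0.07 ± 0.12, adjusted p = 0.893), of the same list, passed neither in the difference nor in either genotype.

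The arrays of days 0 and 4 do not enter the size of the difference, but they enter its estimated error (12 residual degrees of freedom over all arrays), so they are not independent of which genes were called. Of the 211 genes, 66 also differed between genotypes on day 0, against 10.1% of all genes, and 60 on day 4, against 6.46%. Without any 1 mouse the day 0 count of the 211 was 42 to 88, and that of all genes was 1181 to 3018. The day 4 count was 42 to 69, and that of all genes was 675 to 1605. Of the 145 lower genes, 44 were higher in Mll1-deleted cultures on day 0, against 1140 of all 21072 genes. The median difference in level of the 145 was 0.27, 0.39, -0.52 and -0.24 on days 0, 1, 2 and 4. For the 66 higher genes the medians were -0.14, -0.54, 0.42 and 0.37. The signs on days 1 and 2 follow in part from how the genes were chosen.

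Stmn2 on day 0 was at 820.1, 1382 and 459 in Mll1-deleted cultures, against 144, 108 and 117 in wild-type ones (log2 difference in level 2.72, adjusted p = 4.9e-05). Ccn2 was also higher in Mll1-deleted cultures on day 0 (2.05, adjusted p = 9.1e-05), as were Sema3c (1.94, adjusted p = 0.000112) and Map1b (1.43, adjusted p = 0.00185). In wild-type cultures these 4 genes had lower levels on day 0 than on day 2, and in Mll1-deleted cultures Stmn2, Ccn2 and Sema3c had their highest mean on day 0 and Map1b on day 4. Shtn1, Trpc4, Cemip2 and Plxna4 did not pass on day 0, with level differences of 0.24, 0.23, 0.55 and 0.32. On day 4, Plxna4 (-1.26, adjusted p = 0.000831), Dusp4 (-1.69, adjusted p = 0.00681, lost without 489) and Ifit2 (-1.21, adjusted p = 4.6e-06) were lower in Mll1-deleted cultures. Gamt was higher there on day 4 (1.07, adjusted p = 0.0001), as were Btg2 (1.10, adjusted p = 0.000248) and Dll1 (0.80, adjusted p = 0.0130, lost without 818).

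**Figure D3:**
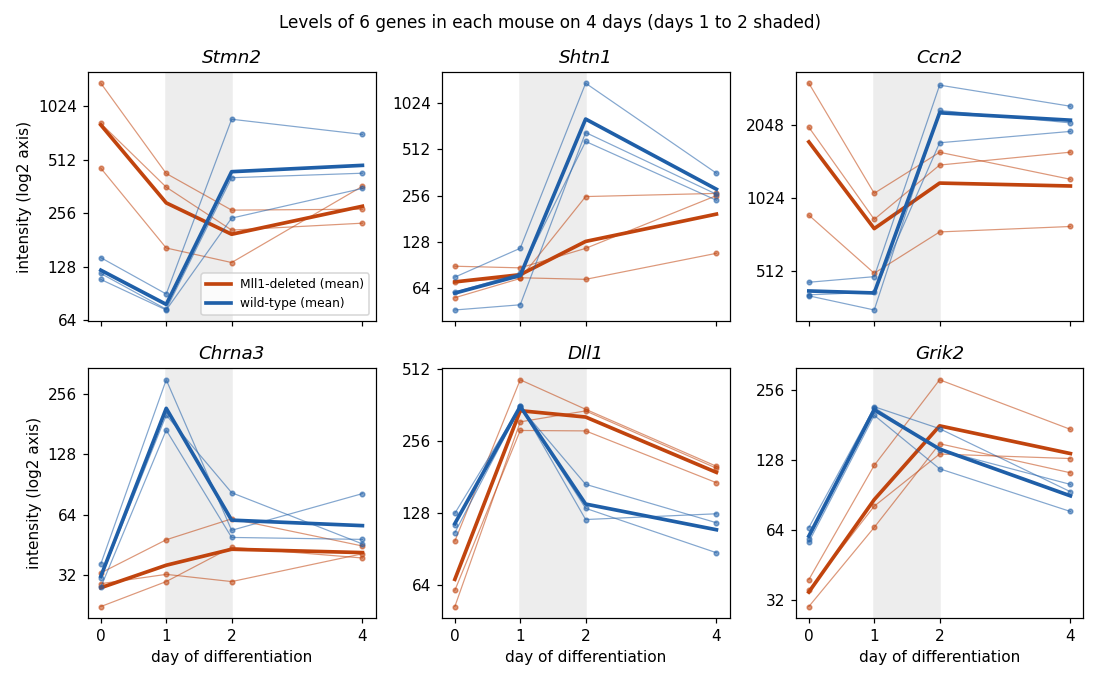
Intensity (log2 axis) of 6 genes on days 0, 1, 2 and 4, with thin lines for single mice, thick lines for the mean of log2 values of 3 mice, orange for Mll1-deleted and blue for wild-type cultures, and days 1 to 2 shaded. Stmn2 and Ccn2 start higher in Mll1-deleted cultures on day 0, Shtn1 parts between days 1 and 2, Chrna3 peaks on day 1 in wild-type cultures, and Dll1 falls between days 1 and 2 in wild-type cultures.

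The higher genes were mostly genes with a wild-type peak on day 1. The mean was highest on day 1 in wild-type cultures for 53 of the 66 (80.3%), against 17.5% of all genes, a share that the choice of genes favours. In Mll1-deleted cultures the mean of the same genes was highest on day 0 for 7 of the 66, on day 1 for 10, on day 2 for 29 and on day 4 for 20. Over all genes these shares were 28.0%, 12.5%, 20.3% and 39.2%, and the choice of positive differences itself favours day 2 over day 1. Grik2 is an example: its Mll1-deleted levels on days 0, 1, 2 and 4 were 35.4, 30.1 and 39.2, then 81.1, 65.8 and 121, then 136, 150.4 and 283, then 129.9, 113 and 173. The wild-type levels were 65.6, 58.8 and 56.9, then 215, 217 and 199, then 142, 175 and 117, then 101, 93.6 and 77.0, highest on day 1 in all 3 mice.

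Cell cycle genes depended on mouse 858. Of 23 measured mitosis genes, 0 passed in the difference, with a median of -0.38. The median change was -0.90 in mouse 489 and -0.93 in mouse 814, but 0.34 in mouse 858, and it was -0.27, 0.24 and -0.26 in wild-type mice. Ccnb2, the cyclin of mitotic entry, was at 477, 593 and 405 in Mll1-deleted cultures on day 2, against 1195, 1358 and 572 on day 1. In wild-type cultures Ccnb2 was at 448, 419.7 and 379 on day 2, against 602, 356 and 453 on day 1, and mouse 858 already lay near the wild-type level on day 1. Without mouse 858, 8 of the 23 were lower in the difference and 18 fell in Mll1-deleted cultures, against 2 with it and 0 without 489, 814 or 870. Cholesterol synthesis genes split the same way, with median changes of -0.49, -0.56 and 0.12 in Mll1-deleted mice, against -0.16, 0.01 and -0.18 in wild-type ones. Of 22 measured, 0 passed in the difference, and 4 fell in Mll1-deleted cultures (9 without mouse 858, 0 without 489 or 814, 2 without 818 or 870). Over all genes, 1.00% passed in the difference and 1.87% fell in Mll1-deleted cultures.

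The remaining lists held at most 2 called members each, where 1.00% of all genes were called. Over all genes, 0.916% rose and 1.87% fell in Mll1-deleted cultures, and 4.27% rose and 4.59% fell in wild-type ones. Among 31 neurogenic transcription factors, Btg2 was higher and Myt1l lower in the difference, and 2 rose in Mll1-deleted cultures (4 without 858, 1 without 489 or 814), against 10 in wild-type ones (6 without 862, 5 without 870). Ependymal and motile cilium genes rose in both genotypes, 5 of 14 in Mll1-deleted cultures (0 to 5 without any 1 mouse) and 12 in wild-type ones (6 to 8 without any 1 wild-type mouse), with 0 called in the difference. Oxidative phosphorylation genes, 22 measured, fell in 1 case in Mll1-deleted cultures and in 9 in wild-type ones (0, 1 and 2 without 818, 862 and 870), with 0 called in the difference. Among 25 extracellular matrix genes, Ccn2 was the 1 called, 7 fell in Mll1-deleted cultures (2 without 489, 4 without 814) and 4 fell in wild-type ones (2 without 870). Of 16 genes of MLL complexes and 21 Hox genes, 0 were called, with median differences of -0.004 and -0.09.

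**Figure D4:**
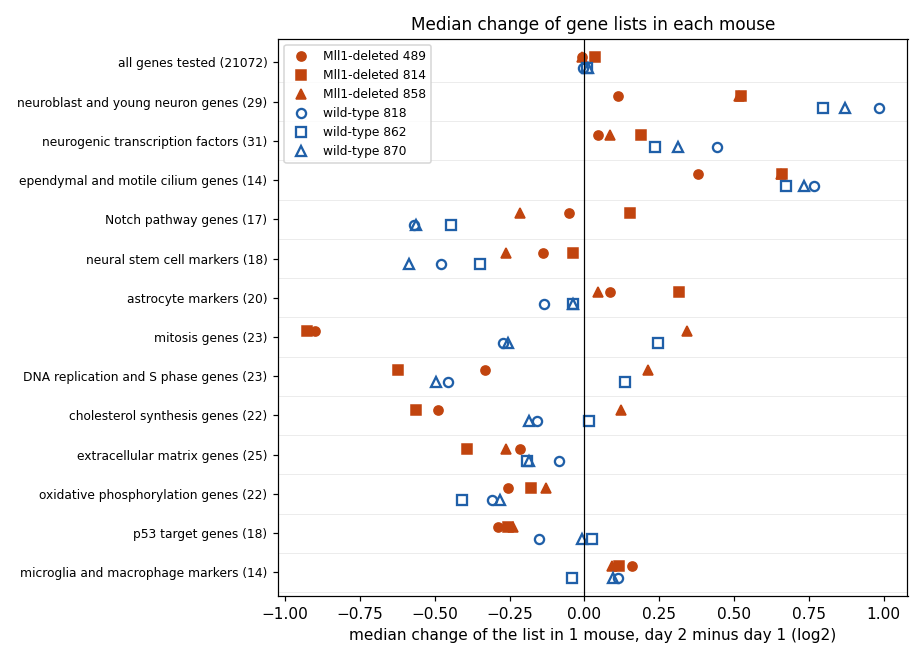
Median change from day 1 to day 2 (log2) of 14 gene sets in each mouse, with filled orange symbols for Mll1-deleted and open blue ones for wild-type mice, and the number of measured genes in brackets. The genotypes do not overlap for neuroblast, neurogenic factor, ependymal, Notch, stem cell, astrocyte, extracellular matrix, oxidative phosphorylation and p53 target genes. Among single genes, 18.2% do not overlap either, and the medians were not tested. The gap is narrow for ependymal (0.66 in 814, 0.67 in 862), matrix (-0.21 in 489, -0.19 in 862) and oxidative phosphorylation genes (-0.25 in 489, -0.28 in 870). Mitosis, replication and cholesterol genes separate mouse 858 from the other Mll1-deleted mice. In these last sets wild-type mouse 862 also lies above 818 and 870.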

How the data were processed

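Gene expression was measured on 24 Affymetrix arrays, 1 per mouse and day. Per the submitters' processing notes, the authors used RMA in Affymetrix Power Tools with genome build mm9, with no versions given. The deposited values are linear intensities, inferred from their range, since RMA ends on a log2 scale; log2 of the deposited intensity was taken here. RMA gives every array the same distribution before probes are summarised, which can hide a shift shared by all genes. No depth exists for arrays, and their number limits the precision.

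Of 28350 probe sets, 22232 carry 1 gene symbol, 2980 carry several and 3138 none, and the last 2 kinds were left out. Old symbols were updated on 2127 through the RefSeq table, 724 symbols were not in it and 25 resembled dates. The brightest probe set stood for each of the 576 genes with several, which left 21072 genes.

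limma 3.58.1 in R 4.3.3 was fitted to all 24 arrays with 8 groups and the mouse as a fixed effect (moderated test, 2-sided, Benjamini-Hochberg over 21072 genes, called under 0.05, 3 comparisons). The mouse IDs of the labels tie the arrays together: after group means were removed, arrays of the same mouse correlated with a median r of 0.310 in Mll1-deleted cultures (over 0.1 in 18 of 18 pairs) and 0.216 in wild-type ones (16 of 18). Levels on single days came from a fit of group means in which the mouse was a random effect (correlation 0.165). On simulated data of 21072 genes with 50 changed per size, the steps recovered 2% of 1.25-fold, 12% of 1.5-fold, 84% of 2-fold and 98% of 4-fold differences, with 5 false among 103 calls. The simulated noise was drawn independently for each gene and array. It holds no deviation that many genes of a mouse share, so these figures do not give the share of false calls in the real data. Figures were drawn with matplotlib 3.10.9 in Python 3.11.15.

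Named genes were the 12 largest differences in each direction among called genes whose per-mouse changes do not overlap and that reach the floor in at least 1 group, then up to 4 members of each gene list in order of unadjusted p. Dcx, Insm1, Kmt2a, Pou3f4, Dlx1, Dlx2 and Dlx5 were named whatever their values. That gave 147 genes, of which 35 were called. The comparison, lists and rules were chosen with earlier results of these data known. Alternatives varied the mouse term, the samples, the floor, a constant of 16 added before log2, probe sets, scaling, the variance prior and array weights.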

Additional observations from a re-analysis of the deposited data

Results flagged for a closer look

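For 35 named genes the test of the difference between genotypes passed, so that the day 1 to day 2 change differed between Mll1-deleted and wild-type cultures. Values are log2 differences, Mll1-deleted minus wild-type. Among neurite and neuron genes they were -3.07 for Stmn2, -2.65 for Shtn1, -1.94 for Map1b, -1.69 for Plxna4, -1.98 for Sema3c, -1.91 for Dlx1as, -1.72 for Calb2, -1.33 for Celf4, -1.14 for Gad1 and -0.90 for Myt1l. Among signalling, matrix and channel genes they were -2.63 for Dusp4, -1.34 for Dusp1, -1.85 for Ccn2, -2.17 for Trpc4, -1.78 for Cemip2 and -1.70 for Mpped2. The differences of Slc2a1, Ifit2 and Tnfrsf10b were -1.14, -1.03 and -0.67.

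On the positive side, receptor and synapse genes had 2.19 (Dpp6), 2.11 (Chrna3), 1.46 (Chrnb4), 1.61 (Grik2), 1.51 (Gabbr2), 1.52 (Sv2c), 1.36 (Drd3) and 1.41 (C1ql1). Secreted and guidance genes had 2.05 (Sfrp5), 1.63 (Dcc) and 1.40 (Sema4a). The others were 1.55 for Gamt, 1.09 for Nrarp, 1.27 for Dll1, 0.99 for Btg2 and 0.61 for Fgfr3. In 16 of the 35, all 3 Mll1-deleted mice moved opposite to all 3 wild-type mice. The choice of these genes by their difference favours such opposite moves, and the count over all genes was not taken.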

How the results depend on the processing

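None of the 35 called named genes changed the sign of its difference under any of the 16 alternatives; of the 112 that were not called, 6 did under at least 1. Without the replicate block, in which the mouse pairs the arrays, 29 genes were called in the difference, 82 in Mll1-deleted and 1045 in wild-type cultures; with the mouse as a random effect the difference had 129 and Mll1-deleted cultures 360, and wild-type cultures had 1735. On the 6 per-mouse changes alone, which keep the pairing, 268 were called, 153 of them among the 211. Array weights gave 777 in the difference and 3183 in Mll1-deleted cultures. Leaving out 1 mouse at a time gave 36 to 584 in the difference, 105 to 744 in Mll1-deleted and 526 to 2254 in wild-type cultures; with fewer mice the fit has fewer degrees of freedom, and all 3 counts were highest without mouse 858. The floor filter (252), the added constant (247), the mean of probe sets (209), probe sets of cross-hybridisation code 1 (210, a code the files do not explain), equal medians (223) and a trended, robust prior (251) stayed within 1.5 times of 211. As first scaled, the array medians differed by -0.03 in the same contrast, an offset that equal medians took out of every gene. Of 35 called named genes, 22 were lost without the block, 8 with the random effect and 1 to 16 without 1 mouse; Fgfr3 and Tnfrsf10b were also lost on the 6 per-mouse changes alone, Dusp1 with the added constant, Dusp1 and Tnfrsf10b with equal medians, and C1ql1, Dlx1as and Dusp1 with the trended, robust prior. The cause was not tested. Medians of 31 lists and all genes moved by more than the spread between mice in 16 cases, such as ependymal genes (-0.11 without 489, -0.42 without 858), EGF and FGF targets (-0.33 without 862), synapse genes (-0.16 without 814) and markers of endothelium, pericytes and fibroblasts (-0.05 to -0.09). Arrays have no depth, and differences between dim groups, as for Calb2, are limited by background.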

Other observations

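The families and genes given here were chosen after their values were seen, and differences are log2 ± SE, Mll1-deleted minus wild-type (limma). Both GABA-B receptor subunits were higher, Gabbr2 and Gabbr1 (1.18 ± 0.20, adjusted p = 0.00635), with per-mouse changes of Gabbr1 of 1.01, 0.95 and 0.10 in Mll1-deleted mice and all 3 below 0 in wild-type mice. Of 9 plexins, the semaphorin receptors, Plxnd1 (1.14 ± 0.21, adjusted p = 0.0132) and Plxnb3 (1.31 ± 0.25, adjusted p = 0.0145) were higher, and Plxna4 and Plxna2 (-0.996 ± 0.212, adjusted p = 0.0265) lower. Of 20 semaphorins, 1 was higher and 2 were lower. Among 3 measured stathmins, Stmn2 and Stmn4 (-1.13 ± 0.26, adjusted p = 0.0369) were lower, and the tubulin Tubb2b differed by -0.77 ± 0.17 (adjusted p = 0.0287).

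Erbb4, a neuregulin receptor of migrating neuroblasts, rose in both genotypes, by 0.72 in Mll1-deleted cultures (adjusted p = 0.00609) and by 2.03 in wild-type ones (adjusted p = 4.7e-08), with a difference of -1.32 ± 0.18 (adjusted p = 0.00121). Hmox1, the enzyme that breaks down heme, rose in wild-type cultures (1.79, adjusted p = 1.3e-06) and stood at 0.36 in Mll1-deleted ones, a difference of -1.43 ± 0.21 (adjusted p = 0.00240). The insulin receptor gene Insr (-0.80 ± 0.17, adjusted p = 0.0240) and Igf1r, the receptor for insulin-like growth factors (-0.92 ± 0.19, adjusted p = 0.0246), were both lower. Ccng2, Gadd45a and Btg1 were also lower, with differences of -1.18, -1.12 and -1.44 (adjusted p = 0.00320, 0.00500 and 0.0139), while Btg2, of the same family as Btg1, was higher (0.99).

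Some genes passed in both genotypes and not in the difference. Fn1, which encodes fibronectin, fell with log2 changes of -1.06 in Mll1-deleted and -1.49 in wild-type cultures. Spp1, the secreted protein osteopontin, also fell (-1.31 in Mll1-deleted and -1.50 in wild-type cultures), as did the thrombospondin Thbs2 (-1.58 in Mll1-deleted and -1.53 in wild-type cultures). The Mll1-deleted calls of Fn1 and Thbs2 were lost without mouse 489, and the wild-type call of Thbs2 without mouse 870. The neuroblast gene Igfbpl1 rose by 0.90 in Mll1-deleted cultures (adjusted p = 0.000893) and by 0.70 in wild-type ones (adjusted p = 0.00105), with a difference of 0.20 ± 0.17 (adjusted p = 0.756). Missing the threshold in the difference does not show that these genes changed alike.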
